A study of Mus musculus with 2 samples.

Results

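S100a8, S100a9, S100a4, S100a6, S100a10, S100a11, Lgals3 and Crip1 are 8 of the 32285 genes counted in 2 single-cell libraries of mouse liver. They were picked by gene symbol, and the symbols had been chosen on the levels and the differences that these same 2 libraries show, so every level below is a description. All 8 symbols were found, once each, in both count matrices. The study set liver non-parenchymal cells of mice that overexpress adenosine kinase (Adk) in hepatocytes, from the albumin promoter (Hep-ADKTg), beside those of control mice (Hep-ADKWT). All animals were 5-month-old males on standard chow. There is 1 library per genotype, with 1 mouse or a pool behind it (not stated in the labels). "Tg" and "WT" below stand for the libraries labelled Hep-ADKTg and Hep-ADKWT. Single libraries allow no test, and genotype, animal, preparation and library cannot be told apart.

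S100 proteins are small calcium-binding proteins with EF-hand motifs that mostly work as dimers. S100A8 and S100A9 pair to form calprotectin, which neutrophils store in the cytosol in large amounts, which binds zinc and manganese, and which acts outside the cell as an alarmin through receptors such as TLR4. S100A4, S100A6, S100A10 and S100A11 bind annexins, cytoskeletal proteins or both, and S100A10 forms a complex with annexin A2 at the plasma membrane. Galectin-3, the product of Lgals3, is a beta-galactoside-binding lectin of myeloid and epithelial cells, and Crip1 encodes a small LIM-domain protein of the cysteine-rich family.

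The Tg library held 96481752 UMIs (unique molecular identifiers, each counting 1 captured transcript) in 17462 barcodes, and the WT library held 97135016 UMIs in 15663. After filtering, 14449 Tg and 12482 WT cells remained, with medians of 2785 UMIs in Tg and 4807 UMIs in WT; 58 barcode sequences were kept in both. Levels are CPM, the UMIs of a gene scaled to a class sum of 1000000 UMIs in a library, with 95% Poisson intervals that cover counting error only. Reads came from the 3′ end of transcripts and were not divided by transcript length, so levels of different genes are compared only loosely. Adk in hepatocyte-like cells stood at 522 CPM (514 to 529) in Tg and 459 CPM (437 to 483) in WT, so the overexpressed gene separates the labels only slightly. UMIs of 14 hepatocyte marker genes made up more of each Tg class sum outside hepatocytes, for example 1.596% in Tg and 0.254% in WT LSEC-like (sinusoidal endothelial) cells. T and NK cell marker UMIs ran the other way in most classes outside lymphocytes, at 87.8 CPM in Tg and 209 CPM in WT LSEC-like cells. In lymphocyte-like, B cell-like and LSEC-like cells the 2 libraries mostly formed separate clusters. Of Tg B cell-like cells 99.2% lay in cluster 5, and of WT ones 92.4% in cluster 3. Of Tg LSEC-like cells 57.4% and 40.7% lay in clusters 4 and 9, and of WT ones 67.3% and 25.04% in clusters 7 and 20.

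The S100 genes all lie in the S100 region of chromosome 3 (GRCm38, GENCODE M21). S100a4 (chr3:90603771-90606045, plus strand) is followed 6.84 kb downstream by S100a6 (chr3:90612882-90624181, plus strand). S100a8 (chr3:90668978-90670035, plus strand) and S100a9 (chr3:90692632-90695721, minus strand) point towards each other across 22.6 kb. S100a11 (chr3:93520488-93526287, plus strand) and S100a10 (chr3:93555080-93564643, plus strand) are 28.8 kb apart, and a gap of 2825 kb separates them from S100a9. Crip1 is at chr12:113146316-113153879 and Lgals3 at chr14:47367751-47386160, both on the plus strand. In the annotation only S100a4 overlaps another gene, the predicted gene Gm42674 on the same strand, which has no row in the matrices.

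The 250 bases before the RefSeq start of 4 genes are shown because S100a8 and S100a9 on one hand, and S100a6 and S100a11 on the other, had the most similar levels across classes in these libraries. RefSeq (GRCm38.p6) promoter entries were found for 7 of the 8 genes. Each run reads 5′ to 3′ on the gene's own strand, and capitals mark matches on either strand to TATAAA (the core promoter box), TTNNGNAA (C/EBP), TGANTCA (AP-1) or GAGGAAGT (PU.1); no matches overlap in these windows.
S100a8, chr3:90668821-90669070, plus strand: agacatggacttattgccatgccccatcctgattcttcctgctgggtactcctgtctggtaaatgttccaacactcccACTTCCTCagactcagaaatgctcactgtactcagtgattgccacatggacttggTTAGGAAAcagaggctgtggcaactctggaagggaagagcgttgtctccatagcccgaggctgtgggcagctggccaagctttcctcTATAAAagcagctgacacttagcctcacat
S100a9, chr3:90695722-90695971, minus strand: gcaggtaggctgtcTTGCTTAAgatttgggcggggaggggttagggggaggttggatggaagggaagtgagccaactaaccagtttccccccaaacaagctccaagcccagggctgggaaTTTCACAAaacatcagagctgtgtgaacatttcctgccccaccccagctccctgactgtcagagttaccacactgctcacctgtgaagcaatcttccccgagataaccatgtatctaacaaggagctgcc
S100a6, chr3:90612644-90612893, plus strand: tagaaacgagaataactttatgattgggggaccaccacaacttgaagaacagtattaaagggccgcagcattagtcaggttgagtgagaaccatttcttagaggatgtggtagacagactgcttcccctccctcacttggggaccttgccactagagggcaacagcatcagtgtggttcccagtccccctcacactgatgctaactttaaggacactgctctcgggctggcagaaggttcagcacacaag
S100a11, chr3:93520246-93520495, plus strand: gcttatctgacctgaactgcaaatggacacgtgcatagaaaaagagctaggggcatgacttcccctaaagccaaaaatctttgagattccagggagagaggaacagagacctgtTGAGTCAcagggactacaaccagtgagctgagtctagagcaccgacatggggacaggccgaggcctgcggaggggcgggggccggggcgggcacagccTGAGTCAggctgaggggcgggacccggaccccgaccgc
The S100a8 window holds 1 TATAAA 30 bases before the start, 1 TTNNGNAA at 117 and 1 GAGGAAGT at 172, while the S100a9 window holds TTNNGNAA at 236 and 130 bases and no match to the other motifs. The S100a11 window holds TGANTCA at 136 and 38 bases, and the S100a6 window holds none of the 4 motifs. Among 32851 promoter windows of the same length, 12.4% hold TATAAA, 36.8% TTNNGNAA, 6.75% TGANTCA and 2.44% GAGGAAGT. The motifs were chosen with these sequences at hand, and a match is a string of letters, not a bound site.

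The neighbours of the 6 S100 genes differed in level by orders of magnitude. S100a3, S100a2, S100a5 and S100a7a, which lie between or beside them, reached at most 5.76, 1.14, 0.315 and 3.84 CPM in any Tg class and 1.19, 0.530, 0.239 and 1.64 CPM in any WT class. S100a5 lies between S100a4 and S100a6, whose levels are given below, and had 3 UMIs in all kept Tg cells and 3 in all kept WT cells. At the start of the cluster, S100a1, S100a13 and S100a16 reached 382, 425 and 369.9 CPM in Tg and 343, 466 and 455 CPM in WT, while S100a14, between S100a13 and S100a16, had 4 UMIs in all kept Tg cells and 6 in all kept WT cells.

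**Figure D1:**
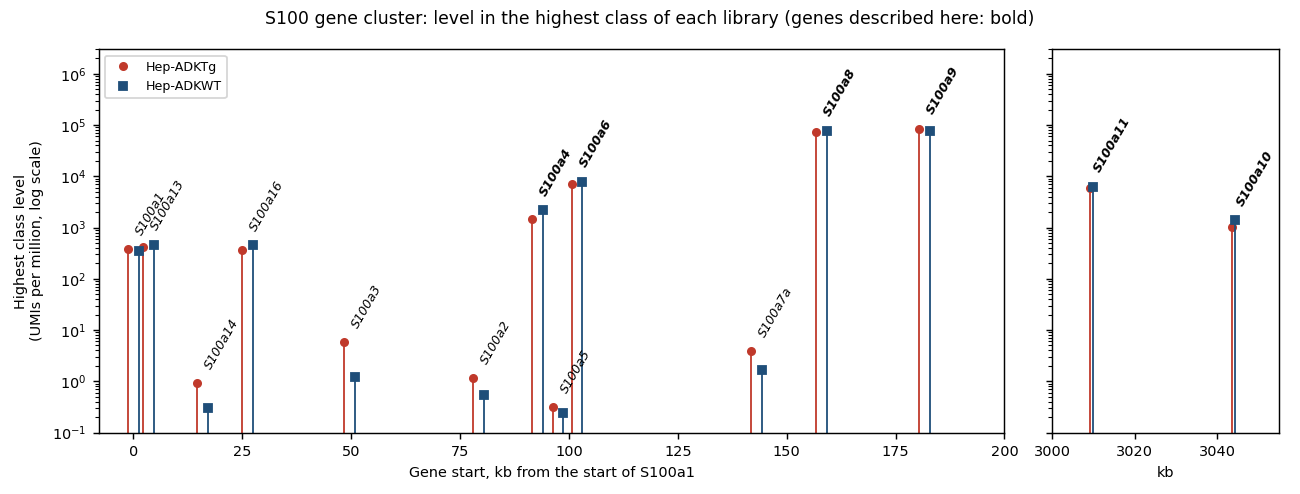
Level of each S100 gene of chromosome 3 (y axis, CPM, log scale) in the class where it was highest in each library, by distance of the gene's start from that of S100a1 (x axis, kb; the second panel shows the distant S100a11 and S100a10). Red circles are Hep-ADKTg and blue squares Hep-ADKWT, 1 library each, drawn slightly apart; classes have at least 50 cells in the library. S100a8 and S100a9 stand above all others; S100a5, between S100a4 and S100a6, and S100a7a, between S100a6 and S100a8, lie near the bottom.

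S100a8 and S100a9 were the most abundant of the 8 genes and were concentrated in neutrophil-like cells. In these cells S100a8 stood at 71737 CPM (71011 to 72468) in Tg and 77579 CPM (77056 to 78106) in WT, and S100a9 at 85511 CPM (84719 to 86309) in Tg and 78347 CPM (77820.4 to 78876) in WT. Together they made up a median of 12.7% of a cell's UMIs in 196 Tg neutrophil-like cells, with 90% of cells between 2.005% and 29.9%, and of 12.7% in 320 WT ones, with 90% between 2.03% and 31.0%. The cells were thus spread widely in both libraries, and the 2 distributions lay on top of each other. S100a9 gave 54.4% of the pair's UMIs in Tg and 50.2% in WT neutrophil-like cells; cell by cell the median was 54.6% in Tg, from 46.6% to 63.7% between the 10th and 90th percentiles, and 51.0% in WT, from 41.4% to 60.9%. All 13 neutrophil markers were detected in both libraries, at 21359 CPM summed in Tg and 23895 CPM in WT.

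A few neutrophil-like cells carried transcripts of the secondary granule genes Ngp, Camp and Ltf, which neutrophils make while they mature in the marrow. With a minimum of 3 UMIs of these genes, 7 Tg and 10 WT cells were of this kind, against 189 Tg and 310 WT cells below it. In the granule-gene cells S100a8 was at 151629 CPM in Tg and 155465 CPM in WT, and in the others at 62029 CPM in Tg and 68358 CPM in WT. S100a9 was at 169461 CPM in Tg and 149751 CPM in WT in the granule-gene cells, and at 75310.3 CPM in Tg and 69893 CPM in WT in the others. Both alarmins were thus higher in the granule-gene cells of each library. S100a6 was lower in them, at 3669 CPM in Tg and 5147 CPM in WT, while the other cells had 7431 CPM in Tg and 8204 CPM in WT. S100a11 was also lower, at 3776 CPM in Tg and 2582 CPM in WT, while the other cells had 6139 CPM in Tg and 6693 CPM in WT. Lgals3 was higher, at 1081 CPM in Tg and 925 CPM in WT, and at 405 CPM in Tg and 429 CPM in WT in the other cells. Each of these orders held in both libraries, on few and deeper cells, with medians of 7455 and 11354 UMIs in the Tg and WT granule-gene cells, against 2264 and 2682 in the other Tg and WT cells; the part of depth was not tested.

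Outside neutrophil-like cells the pair was sparse, and most of its UMIs lay in a handful of barcodes. Neutrophil-like cells held 90.8% of all S100a8 and S100a9 UMIs of the Tg library and 93.6% of those of the WT library. Of 14253 other Tg cells and 12162 other WT cells, 3 Tg and 5 WT barcodes had 2% or more of their UMIs from the pair. Without these 8 barcodes, a step added after the data were seen, neutrophil-like cells held 98.4% in Tg and 98.1% in WT. What was left was low in the larger classes of immune cells: S100a8 was at 7.75 CPM in Tg and 16.9 CPM in WT B cell-like cells, and at 4.12 CPM in Tg and 12.1 CPM in WT lymphocyte-like cells. Higher values remained in WT, where S100a8 was at 236 CPM in cholangiocyte-like, 65.9 CPM in hepatocyte-like and 45.9 CPM in monocyte-like cells, and 1 cell held 98.4% of the S100a8 UMIs of the 35 WT cholangiocyte-like cells. In WT hepatocyte-like cells 1 cell held 86.7% of them. In WT monocyte-like cells, all barcodes counted, 3 cells held 83.7%. After each cell was thinned to 1000 UMIs, an S100a8 UMI was seen in 97.4% of Tg and 99.4% of WT neutrophil-like cells, and in 1.12% of Tg and 1.62% of WT B cell-like cells, which should lack the gene. Free RNA in the suspension gives UMIs of this kind in any droplet, and neutrophil-like cells were 1.36% of kept Tg and 2.56% of kept WT cells; its part in the WT-higher values outside neutrophils was not tested.

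Of the 8 barcodes, 2 stood apart. A Tg barcode in the monocyte-like cluster held 2981 S100a8 and 3128 S100a9 UMIs among 13091, or 46.7% of its UMIs, together with 459 Ngp, 677 Camp and 74 Ltf UMIs and none of Retnlg, Cxcr2 or Csf3r, genes of mature neutrophils. A WT barcode in the unnamed cluster led by proliferation genes held 2869 S100a8 and 3778 S100a9 UMIs among 25214, or 26.4%, with 911 Ngp, 1245 Camp, 344 Ltf, 23 Mki67 and 32 Top2a UMIs, and again none of Retnlg, Cxcr2 or Csf3r. Of the 8, only these had granule-gene UMIs, 1 in each library. Beside these alarmin UMIs they held 0 S100a6 and 34 S100a11 UMIs in the Tg barcode and 7 S100a6 and 21 S100a11 UMIs in the WT barcode, and neither had an S100a4 UMI. The remaining 6 barcodes had 2.31% to 7.36% of their UMIs from the pair and no Ngp, Camp or Ltf UMI; 5 of them also held Retnlg, Cxcr2 and Csf3r UMIs. Whether any of them held more than 1 cell was not tested beyond a doublet score, which lay between 0.0562 and 0.168, under the limit of 0.2.

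**Figure D2:**
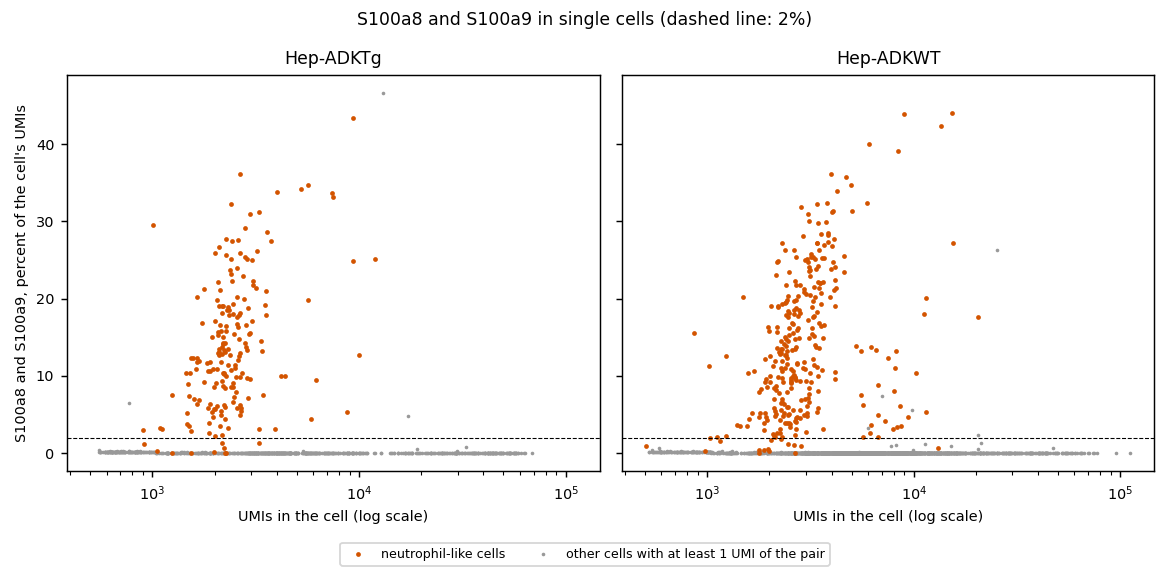
Each point is 1 cell, with its UMIs (x axis, log scale) and the share of them from S100a8 and S100a9 (y axis, percent), in the Hep-ADKTg library (left) and the Hep-ADKWT library (right). Neutrophil-like cells are orange and other cells with at least 1 UMI of the pair grey; the dashed line is at 2%. The grey points at 46.7% in Tg and 26.4% in WT are the granule-gene barcodes outside the neutrophil-like cluster.

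S100a6 and S100a11 followed each other across classes, with neutrophil-like cells highest for both. S100a6 stood there at 7024 CPM (6798 to 7255) in Tg and 7880.2 CPM (7714 to 8049) in WT. Next came fibroblast or mesothelial cell-like cells, at 2976 CPM in Tg and 3061 CPM in WT, and monocyte-like cells, at 1699 CPM in Tg and 2047 CPM in WT. Lymphocyte-like and pDC-like (plasmacytoid dendritic) cells followed, at 844 CPM in Tg and 1036 CPM in WT for the first and 867 CPM in Tg and 759 CPM in WT for the second. LSEC-like cells, at 21.7 CPM in Tg and 48.9 CPM in WT, and hepatocyte-like cells, at 6.39 CPM in Tg and 19.6 CPM in WT, were among the lowest.

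In neutrophil-like cells S100a11 was at 5883 CPM (5676 to 6095) in Tg and 6258 CPM (6109.5 to 6408) in WT, and in monocyte-like cells at 1019 CPM in Tg and 833 CPM in WT. Basophil or mast cell-like cells (15 Tg and 60 WT) had 927 CPM in Tg and 944 CPM in WT. Fibroblast or mesothelial cell-like cells had 789.7 CPM in Tg and 681 CPM in WT, and cholangiocyte-like cells, the bile duct epithelium, had 617 CPM in Tg and 764 CPM in WT. In these bile duct cells S100a10 was at 452 CPM in Tg and 491 CPM in WT and S100a6 at 198 CPM in Tg and 430.0 CPM in WT. LSEC-like cells had 91.4 CPM in Tg and 104 CPM in WT, and hepatocyte-like cells 6.42 CPM in Tg and 15.1 CPM in WT. Over 22 profiles of class by library the Pearson r of the log2 levels of S100a6 and S100a11 was 0.94, a description over classes that share libraries and depth.

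S100a10 was found at a sizeable level in nearly all classes and was the most abundant of the 8 genes in endothelium. It ran from 80.7 CPM in Tg and 123 CPM in WT neutrophil-like cells to 1006 CPM in Tg fibroblast or mesothelial cell-like cells and 959 CPM in WT lymphocyte-like cells, close to which WT fibroblast or mesothelial cell-like cells had 952 CPM, leaving out erythroid cell-like cells and the small basophil class, at 1254 CPM in Tg and 1405 CPM in WT. Neutrophil-like cells, highest for S100a8, S100a9, S100a6 and S100a11, were thus among the lowest for S100a10. LSEC-like cells had 379.8 CPM (365 to 395) in Tg and 468 CPM (453 to 484) in WT. Vascular endothelial cell-like cells (189 Tg, 31 WT) had 862 CPM (805 to 922) in Tg and 849 CPM (722 to 993) in WT. The log2 ratio of vascular over sinusoidal cells was 1.18 (1.07 to 1.30) in Tg and 0.86 (0.62 to 1.09) in WT. S100a11 and Crip1 were also higher in the vascular cells, S100a11 by 1.34 in Tg and 1.04 in WT, and Crip1 by 2.82 in Tg and 2.01 in WT on the log2 scale, although 3 Tg and 2 WT vascular cells held over 50% of the Crip1 UMIs. Hepatocyte-like cells kept 199 CPM in Tg and 219.7 CPM in WT, the highest level among the 8 genes there in both libraries.

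Lgals3, Crip1 and S100a4 were all high in monocyte-like cells and parted elsewhere. In monocyte-like cells Lgals3 stood at 1079 CPM (1043 to 1115) in Tg and 1192 CPM (1159 to 1226) in WT, and in basophil or mast cell-like cells at 910.1 CPM in Tg and 893 CPM in WT. Neutrophil-like cells had 478 CPM in Tg and 481 CPM in WT, and Kupffer cell-like cells 472 CPM in Tg and 283 CPM in WT. The last class was named from its marker list, of which C1qa was seen in 80.6% of Tg and 91.3% of WT cells but Clec4f, a marker of resident Kupffer cells, in 13.1% of Tg and 12.0% of WT cells, so Clec4f was not detected in most of its cells. No other named class passed 147 CPM, the level of WT pDC-like cells. Crip1 was highest in fibroblast or mesothelial cell-like cells, at 4091 CPM (3958 to 4227) in Tg and 4913 CPM (4812 to 5016) in WT, then in monocyte-like cells, at 3270.5 CPM in Tg and 3324 CPM in WT. In lymphocyte-like cells it was at 1013 CPM in Tg and 1082 CPM in WT, and in neutrophil-like cells at 38.4 CPM in Tg and 171 CPM in WT. S100a4 was highest in monocyte-like cells, at 1455 CPM (1414 to 1498) in Tg and 2161 CPM (2117 to 2206) in WT, and second in lymphocyte-like cells, at 261 CPM in Tg and 409.7 CPM in WT. The monocyte-like class also held a part with dendritic cell genes, described below, in which S100a4 was lower in both libraries. In neutrophil-like cells S100a4 had 1 UMI in Tg and 59 UMIs in WT, of which 2 cells held over 50%. S100a4 and S100a6, neighbours on the chromosome, thus differed widely in neutrophil-like cells and lay close together in monocyte-like cells.

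**Figure D3:**
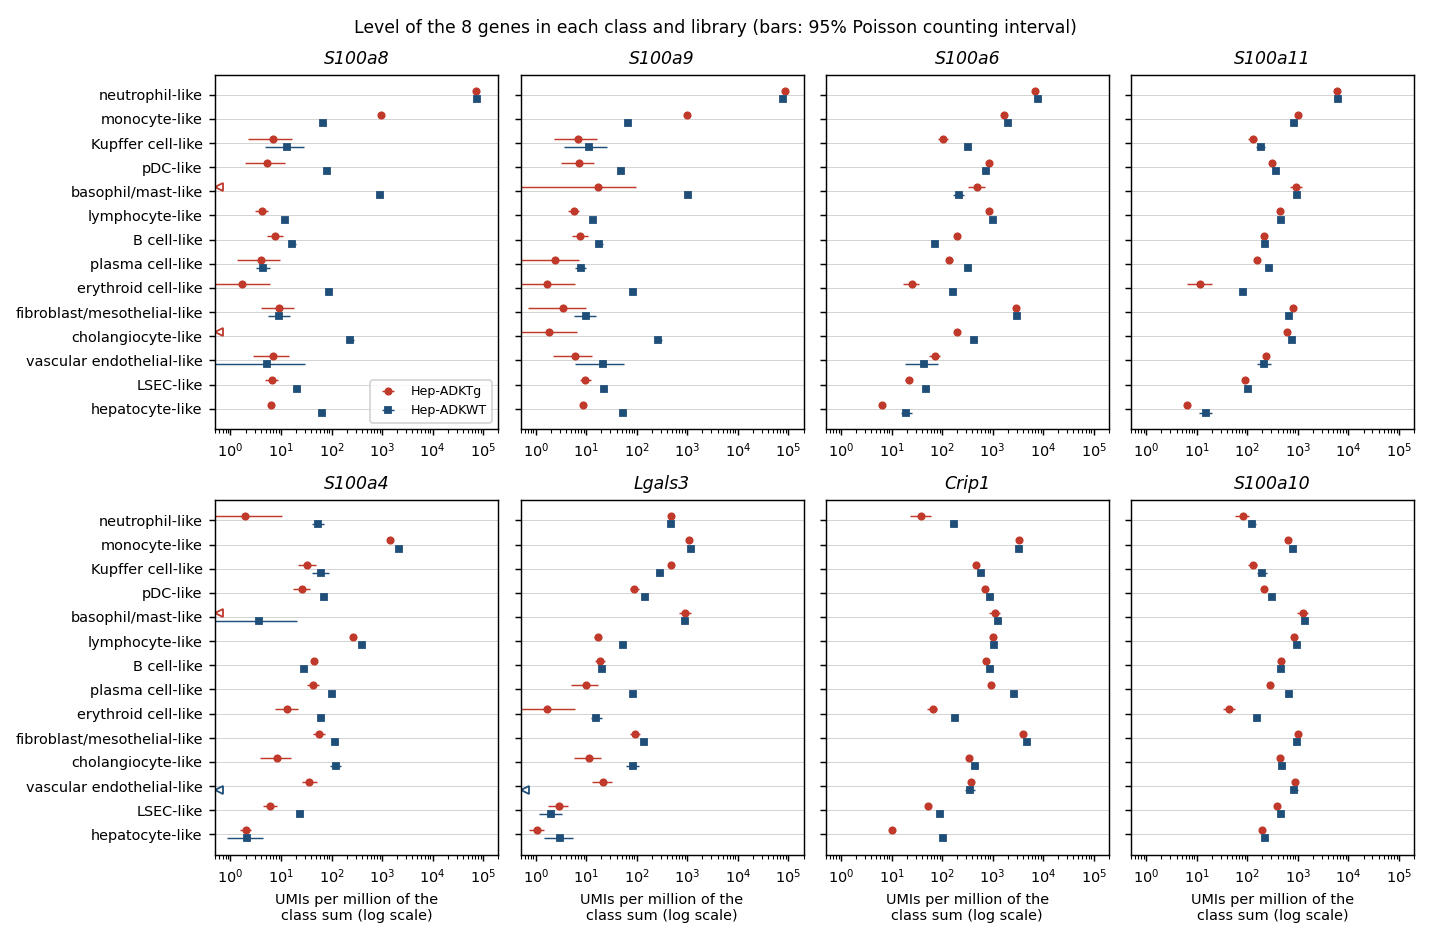
Level of each gene (x axis, CPM of the class sum, log scale) in 14 classes (y axis), in Hep-ADKTg (red circles) and Hep-ADKWT (blue squares), 1 library each; bars are 95% Poisson counting intervals and open triangles at the left edge mark 0 UMIs. S100a8 and S100a9 peak in neutrophil-like cells, Lgals3 and S100a4 in monocyte-like cells and Crip1 in the fibroblast or mesothelial class. The high S100a8 and S100a9 values of Tg monocyte-like and of WT basophil-like, cholangiocyte-like, pDC-like and erythroid cell-like cells come mostly from 1 barcode each.

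Between the libraries, the high-level values of the 8 genes differed little in neutrophil-like cells. The log2 ratio of Tg over WT was -0.11 (-0.13 to -0.10) for S100a8, 0.13 (0.11 to 0.14) for S100a9, -0.17 (-0.22 to -0.11) for S100a6, -0.09 (-0.15 to -0.03) for S100a11 and -0.01 (-0.23 to 0.21) for Lgals3, with counting intervals in brackets. S100a8 and S100a9 pointed in opposite directions by amounts under 1.5-fold, and S100a8 turned to 0.086 with TMM scaling. Over all genes of the class the median ratio was -0.21. Genes were counted as measured with 50 or more UMIs in a class over both libraries, and the 8 genes were given a ratio from 20 UMIs. Ratios on 20 to 49 UMIs were those of Lgals3 in LSEC-like and hepatocyte-like cells, S100a8 and S100a9 in fibroblast or mesothelial cell-like cells and S100a8 in plasma cell-like cells. In neutrophil-like cells 0 of 8 genes were 1.5-fold or more higher and 3 were 1.5-fold or more lower in Tg, where 9.71 percent and 17.3 percent of all 3562 genes measured in the class were; the 3 lower ones were S100a4, Crip1 and S100a10, the genes with the lowest levels in neutrophil-like cells. Summed T and NK cell markers were at 263 CPM in Tg and 636 CPM in WT neutrophil-like cells, and their part in these 3 values was not tested. Without cells that held such a UMI, the S100a10 log2 ratio was 0.72. Of 15 measured genes of a list of neutrophil genes, 1 was 1.5-fold or more higher (Trem1, an activating receptor, 0.86) and none was lower, with a list median of -0.02.

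In monocyte-like cells 2 of 8 genes were 1.5-fold or more higher and 0 were 1.5-fold or more lower in Tg, where 6.52 percent and 8.86 percent of all 8892 genes measured in the class were. The 2 higher genes were S100a8, at 943 CPM in Tg and 68.7 CPM in WT, and S100a9, at 987 CPM in Tg and 65.9 CPM in WT, and the single Tg barcode described above held 99.4% and 99.7% of their Tg UMIs. Without the alarmin-rich barcodes S100a8 stood at 5.37 CPM in Tg and 45.9 CPM in WT monocyte-like cells, a log2 ratio of -3.10, so the direction turned. The remaining WT value also rested on few cells. Of the 288 S100a8 UMIs of all WT monocyte-like cells, 3 cells held 83.7%, and the 1 WT barcode left out held 96. S100a4 was the member that differed most among the abundant ones, at -0.57 (-0.62 to -0.52), just short of 1.5-fold. Finer clustering split these cells into a part rich in MHC class II transcripts, with Cd74 at 12393 CPM in Tg and 10394 CPM in WT, and a part rich in the classical monocyte genes Ly6c2 and F13a1, with F13a1 at 623 CPM in Tg and 617 CPM in WT. The class II part also held genes of dendritic cells, with Flt3 UMIs in 53.8% of Tg and 52.2% of WT cells and Cd209a UMIs in 24.9% of Tg and 26.9% of WT cells, and F13a1 UMIs in 8.12% of Tg and 4.95% of WT cells. In the second part, of 120 Tg and 146 WT cells, S100a4 was at 2867 CPM (2763 to 2973) in Tg and 2839 CPM (2759 to 2921) in WT. S100a6 was at 3178 CPM in Tg and 2884 CPM in WT there, and Lgals3 at 1796 CPM in Tg and 1779.8 CPM in WT. In the first part, of 197 Tg and 182 WT cells, S100a4 was at 803 CPM (766 to 842) in Tg and 1717 CPM (1666 to 1769) in WT. S100a6 was at 1014 CPM in Tg and 1499 CPM in WT there, and Lgals3 at 749 CPM in Tg and 808 CPM in WT. The lower Tg values of S100a4 and S100a6 thus lay in the class II part. Summed T and NK cell markers were at 536 CPM in Tg and 1372 CPM in WT monocyte-like cells, and their part was not tested. Crip1 was close to equal in both, at 3408 CPM in Tg and 3452 CPM in WT in the class II part and 2999.8 CPM in Tg and 3128 CPM in WT in the F13a1 part.

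In lymphocyte-like cells 0 of 8 genes were 1.5-fold or more higher and 4 were 1.5-fold or more lower in Tg, where 8.69 percent and 5.59 percent of all 11491 genes measured in the class were. The 4 lower genes were S100a4, Lgals3, S100a8 and S100a9. The log2 ratio was -0.65 (-0.71 to -0.59) for S100a4. For Lgals3 it was -1.70 (-1.92 to -1.49), on levels of 16.8 CPM in Tg and 54.6 CPM in WT. The pair S100a8 and S100a9 stood at 13.4 CPM or less in both libraries. S100a4 fell short of 1.5-fold with TMM factors (-0.56), DESeq2 size factors (-0.55) and a hepatocyte profile subtracted (-0.51). The log2 ratios of S100a6, -0.30 (-0.33 to -0.26), S100a10, -0.22 (-0.25 to -0.18), S100a11, -0.07 (-0.12 to -0.03), and Crip1, -0.10 (-0.13 to -0.06), were within 1.5-fold. Most Tg cells of this class lay in clusters 2 (68.7%) and 12 (26.8%), and most WT cells in clusters 6, 8, 13, 18 and 19, so subsets were gated on marker UMIs instead, after the data had been seen. The subsets were CD8 and CD4 T cells with UMIs of Lef1 or Ccr7 (genes of recirculating cells) or of Cxcr6 (a chemokine receptor of liver-resident cells), and cells with Ncr1 and no Cd3 UMI, either with Klra4, Klra8 or Eomes (NK cell genes) or with Cxcr6 (ILC1-type cells).

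S100a4 separated these subsets more sharply than it separated the libraries. The Ncr1 cells with Cxcr6 (32 Tg and 127 WT cells) had 1550.3 CPM (1342 to 1782) in Tg and 2173 CPM (2059.7 to 2291) in WT, and the Ncr1 cells with NK genes (61 Tg and 133 WT cells) had 117 CPM (77.3 to 171) in Tg and 121 CPM (95.7 to 151) in WT. CD8 cells with Lef1 or Ccr7 (223 Tg and 388 WT cells) had 33.5 CPM in Tg and 28.2 CPM in WT, and CD8 cells with Cxcr6 (69 Tg and 214 WT cells) had 325 CPM in Tg and 429 CPM in WT. Within each library S100a4 was thus far lower in NK-type than in ILC1-type cells and far lower in recirculating than in Cxcr6 CD8 cells. CD4 cells with Cxcr6 (222 Tg and 386 WT cells) had 238 CPM (209 to 269.9) in Tg and 453 CPM (425 to 482) in WT, and CD4 cells with Lef1 or Ccr7 (77 Tg and 161 WT cells) had 260.5 CPM in Tg and 187 CPM in WT. The log2 ratio of Tg over WT was -0.93 in the first of these CD4 subsets, 0.48 in the second, -0.40 in Cxcr6 CD8 cells, 0.25 in recirculating CD8 cells and -0.05 in NK-type cells. The lower Tg level of the whole class was thus not found in each subset, and within CD4 cells S100a4 set Cxcr6 cells above Lef1 or Ccr7 cells in WT only.

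S100a6 also varied between the subsets, and NK-type cells, low for S100a4, were among the higher ones for it. It was at 1856 CPM in Tg and 2321 CPM in WT in ILC1-type cells, at 1138 CPM in Tg and 1193 CPM in WT in NK-type cells and at 1029.6 CPM in Tg and 1362 CPM in WT in Cxcr6 CD8 cells, against 248 CPM in Tg and 229.9 CPM in WT in CD8 cells with Lef1 or Ccr7. In CD4 cells S100a6 was at 1076 CPM in Tg and 1149 CPM in WT with Cxcr6 and at 396 CPM in Tg and 216 CPM in WT with Lef1 or Ccr7, the subset in which it was higher in Tg, by a log2 ratio of 0.87. S100a11 was at 649.9 CPM in Tg and 715 CPM in WT in ILC1-type cells and, within counting error of that, at 595 CPM in Tg and 697 CPM in WT in CD4 cells with Cxcr6, and it was lowest of the 6 subsets in CD8 cells with Lef1 or Ccr7, at 159 CPM in Tg and 161 CPM in WT. S100a10 was highest in NK-type cells, at 1190.1 CPM in Tg and 1353 CPM in WT, and lowest in recirculating CD8 cells, at 468 CPM in Tg and 508 CPM in WT. Crip1 hardly varied and stayed between 852 and 1283 CPM over the 6 subsets of both libraries. Lgals3 was lower in Tg in the 5 subsets large enough for a ratio, with log2 ratios from -1.001 to -2.10, on levels of 3.64 to 131 CPM. The intervals of both subsets with Lef1 or Ccr7 crossed 0, on 5 Tg UMIs in the CD8 and 4 in the CD4 cells. In the whole class an Lgals3 UMI was seen in 1.84% of Tg and 4.73% of WT cells thinned to 1000 UMIs. In the whole class, of 10 genes of effector or resident lymphocytes, 2 were 1.5-fold or more lower in Tg (Gzmb -0.63, Gzma -0.60) and none higher, and of 7 recirculating genes none passed in either direction.

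**Figure D4:**
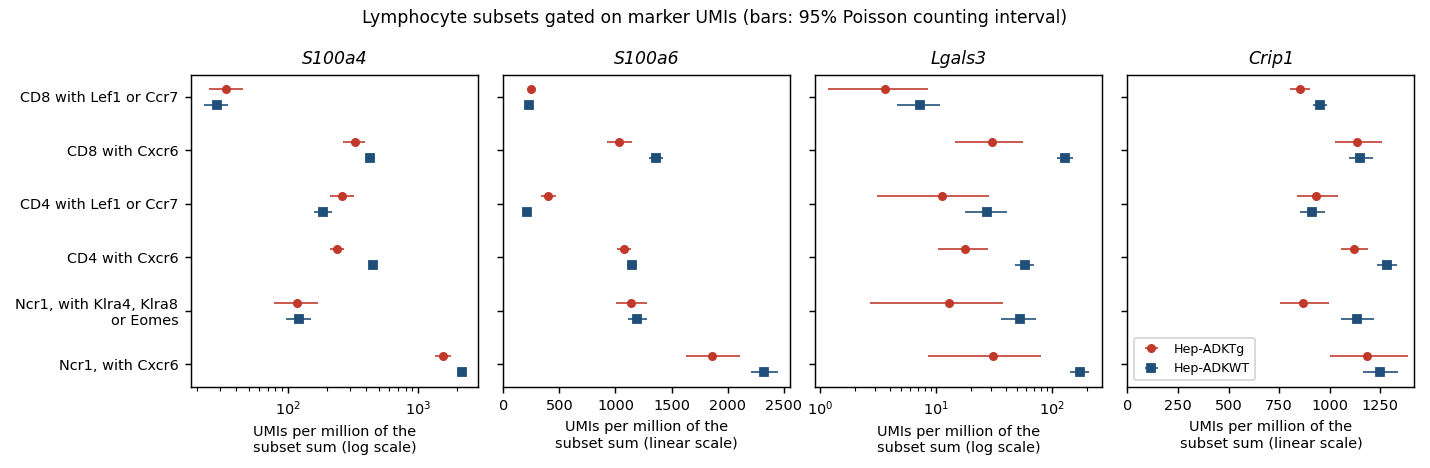
Level of S100a4, S100a6, Lgals3 and Crip1 (x axis, CPM of the subset sum; log scale for S100a4 and Lgals3, linear for the others) in 6 subsets of lymphocyte-like cells gated on marker UMIs, in Hep-ADKTg (red circles) and Hep-ADKWT (blue squares), 1 library each; bars are 95% Poisson counting intervals. S100a4 spans from 28.2 CPM in WT recirculating CD8 cells to 2173 CPM in WT Ncr1 cells with Cxcr6, while Crip1 stays between 852 and 1283 CPM.

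In LSEC-like cells 0 of 8 genes were 1.5-fold or more higher and 5 were 1.5-fold or more lower in Tg, where 7.51 percent and 6.76 percent of all 10846 genes measured in the class were. The abundant member S100a10 had a log2 ratio of -0.30 (-0.38 to -0.23) and S100a11 of -0.19 (-0.34 to -0.04), both within 1.5-fold. The 5 lower genes were S100a4, S100a6, S100a8, S100a9 and Crip1, of which Crip1, at 52.8 CPM in Tg and 89.3 CPM in WT, was the most abundant. Its log2 ratio was -0.76 (-0.94 to -0.57), and 33 of 2497 Tg and 24 of 1701 WT cells held over 50% of its UMIs. It fell short of 1.5-fold under 5 of 14 alternatives, which gave -0.19 at a resolution of 0.5, -0.18 as a mean over cells, -0.36 thinned, -0.55 with a hepatocyte profile subtracted and -0.43 without cells holding a T or NK marker UMI. For S100a6, with a log2 ratio of -1.17 (-1.45 to -0.89), the cells that held over 50% of the UMIs were 18 Tg and 9 WT cells, and for S100a4, with -1.95 (-2.47 to -1.47), 7 Tg and 2 WT cells. After thinning, an S100a6 UMI was seen in 1.85% of Tg and 2.73% of WT LSEC-like cells, and an S100a10 UMI in 30.02% of Tg and 36.5% of WT ones. The low members thus rested on few cells. Without cells holding a T or NK marker UMI, the S100a6 log2 ratio was -0.71 and that of S100a4 -0.072. In the same class 5 of 6 measured effector or resident lymphocyte genes were 1.5-fold or more lower in Tg and none was higher. Of 11 measured partners and receptors, Alcam, an adhesion molecule, was higher at 15.1 CPM in Tg and 5.86 CPM in WT, and the phospholipid-binding annexins Anxa1, at 18.9 CPM in Tg and 32.4 CPM in WT, and Anxa11, at 25.8 CPM in Tg and 38.8 CPM in WT, were lower by 1.5-fold or more. Anxa2, the partner of S100A10, was within 1.5-fold, at 178 CPM in Tg and 225 CPM in WT.

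In B cell-like cells 2 of 8 genes were 1.5-fold or more higher and 2 were 1.5-fold or more lower in Tg, where 8.88 percent and 7.79 percent of all 9433 genes measured in the class were. S100a6 was higher, at 194 CPM in Tg and 71.9 CPM in WT, a log2 ratio of 1.43 (1.27 to 1.59), which fell short of 1.5-fold with a minimum of 1000 UMIs a cell (0.36), at most 10% mitochondrial UMIs (0.39) and the members used in clustering (0.24). S100a4 was higher too, at 45.5 CPM in Tg and 29.2 CPM in WT, a log2 ratio of 0.64 (0.36 to 0.92), which turned to -0.22 with a minimum of 1000 UMIs a cell. The lower ones were S100a8 and S100a9, at 17.9 CPM or less in both libraries. Of 1249 Tg cells 6, and of 2049 WT cells 12, held over 50% of the S100a6 UMIs, and 4 cells of each library held over 50% of the S100a4 UMIs. Thinned shares of cells with an S100a6 UMI were 4.73% in Tg and 3.38% in WT. Even unthinned, 9.93% of Tg and 8.74% of WT B cell-like cells had an S100a6 UMI, whereas Crip1, at 741 CPM in Tg and 877 CPM in WT, and S100a10, at 455 CPM in Tg and 464 CPM in WT, were seen in 67.7% and 70.9% of Tg and 80.0% and 74.7% of WT cells.

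In Kupffer cell-like cells, where S100a8 and S100a9 had too few UMIs for a ratio, 1 of 6 genes were 1.5-fold or more higher and 3 were 1.5-fold or more lower in Tg, where 15.0 percent and 8.27 percent of all 3568 genes measured in the class were. Lgals3 was the higher one, at 472 CPM (423 to 525) in Tg and 283 CPM (236 to 336) in WT, a log2 ratio of 0.74 (0.44 to 1.05), which fell short of 1.5-fold as a mean over cells (0.41) and thinned (0.44). Of the class genes, Clec4f was at 315 CPM in Tg and 82.4 CPM in WT, and Cx3cr1 at 448 CPM in Tg and 1015 CPM in WT. The 11 Kupffer cell markers together stood close, at 11485 CPM in Tg and 11325 CPM in WT. The part of the Clec4f and Cx3cr1 differences in the Lgals3 value was not tested. The lower ones were S100a6, S100a4 and S100a10. S100a6, at 106 CPM in Tg and 323 CPM in WT, rested on 4 Tg and 3 WT cells that held over 50% of its UMIs, and its thinned shares of cells were 7.09% in Tg and 5.88% in WT. T and NK cell markers summed to 531 CPM in Tg and 1679 CPM in WT cells of the class, and without cells holding such a UMI the S100a6 log2 ratio turned to 0.97.

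In fibroblast or mesothelial cell-like cells 0 of 8 genes were 1.5-fold or more higher and 3 were 1.5-fold or more lower in Tg, where 6.91 percent and 12.0 percent of all 7624 genes measured in the class were. The lower ones were S100a4, at -1.03 (-1.50 to -0.58), Lgals3, at -0.60 (-0.98 to -0.24), which fell short of 1.5-fold under 5 of 14 alternatives, among them with TMM factors (-0.53) and with doublet-scored cells kept (-0.25), and S100a9, at -1.53 (-3.94 to 0.25) on 3 Tg and 18 WT UMIs. The 50 Tg UMIs of S100a4 lay in 14 of 131 cells, and 1 cell held 54% of them. Abundant genes there were within 1.5-fold, with log2 ratios of -0.26 (-0.32 to -0.21) for Crip1, -0.04 (-0.11 to 0.03) for S100a6, 0.08 (-0.04 to 0.20) for S100a10 and 0.21 (0.08 to 0.35) for S100a11. The class pooled clusters 27 and 33, and cluster 33 held 32.8% of its Tg and 8.78% of its WT cells. Within cluster 27 the log2 ratio was -0.63 (-1.12 to -0.16) for S100a4, -0.26 (-0.65 to 0.11) for Lgals3 and -1.08 (-3.49 to 0.71) for S100a9. The part of this makeup was not tested. In pDC-like cells 0 of 8 genes were 1.5-fold or more higher and 4 were 1.5-fold or more lower in Tg, where 5.33 percent and 12.0 percent of all 8066 genes measured in the class were. S100a6, at 867 CPM in Tg and 759 CPM in WT, and Crip1, at 698 CPM in Tg and 897 CPM in WT, were the most abundant there and within 1.5-fold, and the lower ones were S100a4, Lgals3, S100a8 and S100a9. In WT pDC-like cells 1 barcode held 88.5% of the S100a8 and 77.5% of the S100a9 UMIs. Without the alarmin-rich barcodes the log2 ratios were -0.78 (-2.31 to 0.47) for S100a8 and -0.63 (-1.92 to 0.46) for S100a9. Both of these intervals crossed 0. In hepatocyte-like cells 0 of 8 genes were 1.5-fold or more higher and 6 were 1.5-fold or more lower in Tg, where 5.82 percent and 7.76 percent of all 10217 genes measured in the class were. The lower ones were S100a6, S100a8, S100a9, S100a11, Lgals3 and Crip1, and the S100a10 log2 ratio was -0.15 (-0.26 to -0.03). Of the 117 WT cells, 1 held 86.7% of the WT S100a8 UMIs and 1 held 79.3% of the WT S100a9 UMIs. Of the WT Crip1 UMIs 1 cell held 51.3% and 3 cells 80.6%. In cluster 10, with 816 Tg and 72 WT cells, log2 ratios were -0.43 (-1.03 to 0.23) for S100a8 and 0.02 (-0.57 to 0.68) for S100a9. They were -0.81 (-2.38 to 1.19) for Lgals3, -0.70 (-1.28 to -0.08) for S100a6, -1.15 (-1.66 to -0.61) for S100a11 and -3.41 (-3.65 to -3.17) for Crip1.

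In plasma cell-like cells 0 of 8 genes were 1.5-fold or more higher and 7 were 1.5-fold or more lower in Tg, where 4.24 percent and 48.0 percent of all 8563 genes measured in the class were. Crip1 was the most abundant member, at 923 CPM (871 to 979) in Tg and 2628 CPM (2595 to 2661) in WT, a log2 ratio of -1.51 (-1.60 to -1.42) against a median of -0.56 over all genes of the class. In erythroid cell-like cells 0 of 8 genes were 1.5-fold or more higher and 8 were 1.5-fold or more lower in Tg, where 12.8 percent and 62.8 percent of all 2671 genes measured in the class were. The median of all genes was -0.996 in erythroid cell-like cells, and all 8 genes were lower in a class where most genes were. Crip1 was at 65.0 CPM in Tg and 181 CPM in WT and S100a10 at 44.2 CPM in Tg and 158 CPM in WT. T and NK cell markers stood at 149 CPM in Tg and 1026 CPM in WT erythroid cell-like cells, and at 727 CPM in Tg and 1766 CPM in WT plasma cell-like cells. Without cells holding such a UMI, the erythroid cell-like log2 ratio turned to 1.25 for Crip1 and to 1.57 for S100a4. The largest scaling shifts were also in these classes: TMM factors moved the log2 ratio of every gene by 0.91 in erythroid cell-like and 0.55 in plasma cell-like cells, by 0.20 in neutrophil-like cells, 0.14 in B cell-like and 0.13 in LSEC-like cells, and by less than 0.1 in the other 6 classes.

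**Figure D5:**
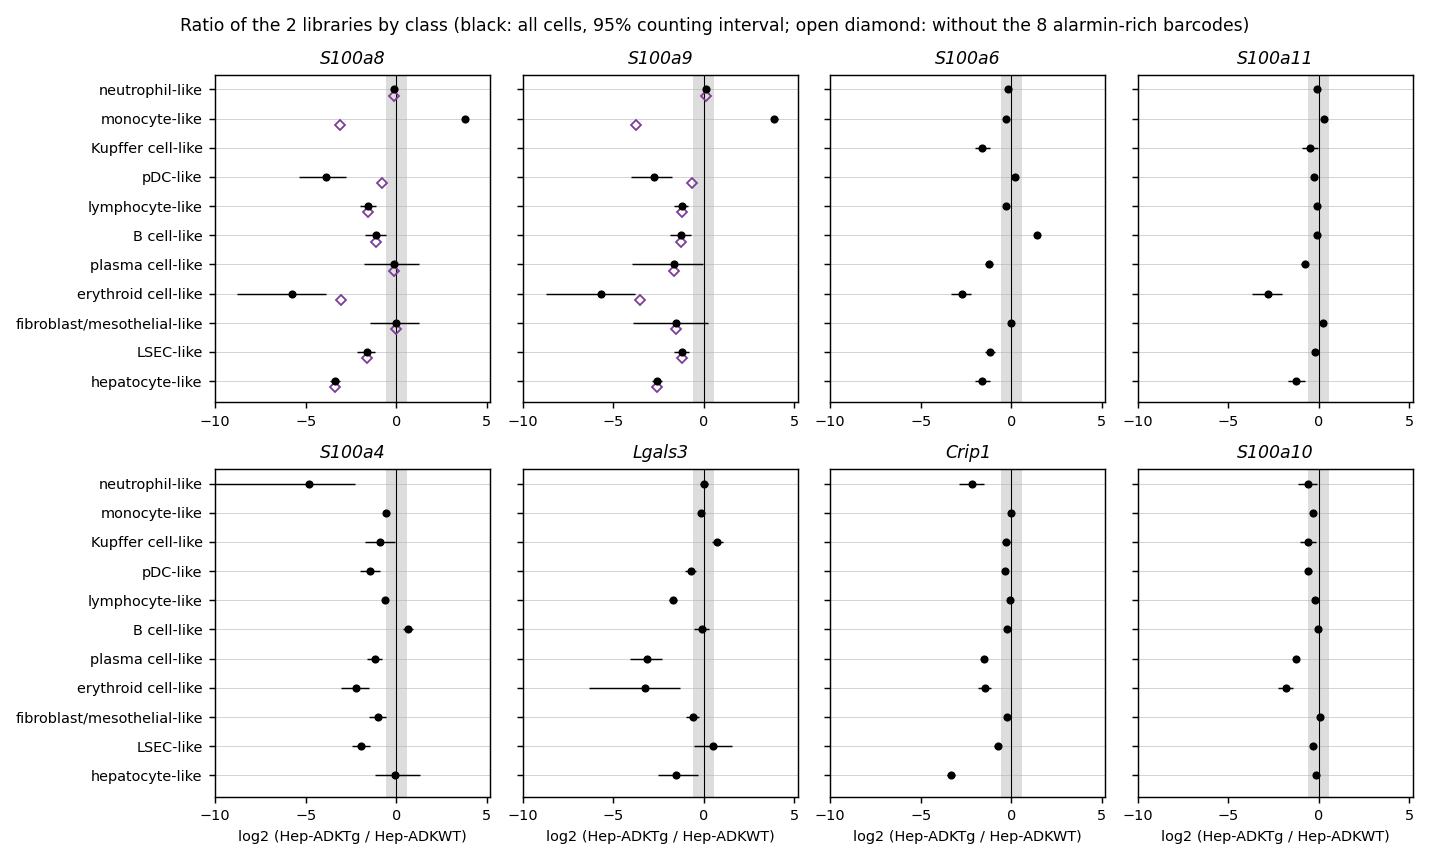
Log2 ratio of Hep-ADKTg over Hep-ADKWT (x axis) of each gene in each class with at least 50 cells in both libraries (y axis); bars are 95% counting intervals, the grey band marks 1.5-fold and open diamonds leave out the 8 alarmin-rich barcodes. In neutrophil-like cells S100a8, S100a9, S100a6, S100a11 and Lgals3 lie in the band, and in monocyte-like cells S100a8 and S100a9 change side without those barcodes.

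Annexins that bind S100 proteins did not follow their partners throughout. Anxa2, which binds S100A10, was at 1010.2 CPM in Tg and 1080.5 CPM in WT in neutrophil-like cells, at 480.2 CPM in Tg and 591 CPM in WT in fibroblast or mesothelial cell-like cells and at 481 CPM in Tg and 569 CPM in WT in monocyte-like cells. Neutrophil-like cells, high for Anxa2, were thus low for S100a10 in both libraries. Anxa1, an annexin that binds S100A11, was highest in the same neutrophil-like cells as S100a11 among the 11 classes compared, at 928 CPM in Tg and 969.7 CPM in WT. Tlr4, a receptor for the calprotectin pair, was low, at 28.8 CPM in Tg and 25.9 CPM in WT in neutrophil-like, 26.9 CPM in Tg and 30.5 CPM in WT in LSEC-like and 9.12 CPM in Tg and 6.68 CPM in WT in monocyte-like cells. Of 12 partners and receptors listed, 9 were measured in neutrophil-like cells, with 1 higher by 1.5-fold or more (Bsg, log2 ratio 0.74) and 3 lower (Anxa6, Ahnak -0.94, Alcam -0.93). In lymphocyte-like cells 10 were measured, with Alcam higher (1.65) and Anxa1 lower (-0.72), and in monocyte-like cells 11 were measured and none passed in either direction.

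Among the related families, galectin-1 (Lgals1) had another pattern than Lgals3. Lgals1 was highest in fibroblast or mesothelial cell-like cells, at 3119 CPM in Tg and 4212 CPM in WT, and pDC-like cells, at 2676 CPM in Tg and 2315 CPM in WT, and stood at 367 CPM in Tg and 573 CPM in WT in LSEC-like cells, where Lgals3 was at 2.88 CPM in Tg and 2.04 CPM in WT. It was 1.5-fold or more lower in Tg LSEC-like (log2 ratio -0.64) and neutrophil-like cells (-1.91), and within 1.5-fold in lymphocyte-like cells (-0.37). Lgals1 was also 1.5-fold or more lower in Tg erythroid cell-like (-1.69), Kupffer cell-like (-1.09), hepatocyte-like (-1.07) and plasma cell-like cells (-0.83). Lgals9 was highest in hepatocyte-like cells, at 379 CPM in Tg and 318 CPM in WT. Of the 10 other S100 genes listed, 3 were measured in lymphocyte-like cells, and S100a16 (1.45) and S100a1 (1.19) were higher in Tg by 1.5-fold or more. S100a1 was at 238 CPM in Tg and 223 CPM in WT and S100a16 at 26.1 CPM in Tg and 33.2 CPM in WT in hepatocyte-like cells. Both were higher elsewhere. S100a1 reached 382 CPM in Tg and 343 CPM in WT fibroblast or mesothelial cell-like cells. S100a16 reached 369.9 CPM in Tg and 455 CPM in WT LSEC-like cells. The part of the larger hepatocyte marker share of Tg classes, or of RNA from other classes, was not tested. Of the 5 other cysteine-rich LIM genes, 3 were measured in lymphocyte-like cells, with Crip2 (1.02) and Csrp2 (0.87) higher, opposite in sign to Crip1.

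Across the 22 profiles of class by library, the genes most like each member by Pearson r of log2(CPM + 10), among 11593 genes, were as follows, as a description. For S100a8 they were Ngp (0.97), Camp (0.96), Ltf (0.96), and for S100a9 Ngp (0.97), Camp (0.97), Ltf (0.97), all 3 secondary granule genes that the alarmin-rich Tg monocyte-like barcode also carries. That barcode held 99.4% of the S100a8 and 99.7% of the S100a9 UMIs of the Tg monocyte-like profile. The ranking was not repeated without it. S100a8 and S100a9 had r = 0.998 with each other. For S100a6 they were Mbp (0.92), Pdlim2 (0.89), Tspo (0.89), and for S100a11 Pbxip1 (0.93), Hmgn2 (0.90), Zyx (0.90). For S100a4 they included Traf1 (0.90) and Tmsb10 (0.82), for Crip1 they were Slc1a5 (0.93), Psat1 (0.90), Tmsb10 (0.87), and Tmsb10, which binds actin monomers, was named for both. For Lgals3 they were G6pdx (0.92), Fam129a (0.92), Csf2ra (0.92), the last a subunit of the GM-CSF receptor, and for S100a10 Unc119b (0.90), Ltv1 (0.88), Lztfl1 (0.87). Among the members S100a4 and Crip1 had r = 0.75 and S100a6 and Lgals3 r = 0.76.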

How the data were processed

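The deposited matrices hold whole UMI counts per gene and barcode, made by the authors from 10x v3 libraries of collagenase-digested liver. Cell Ranger 6.1.2, R 4.1.0, Seurat 4.0.2 and GRCm38/mm10 are named per the submitters' processing notes, and SoupX 1.5.2 and Harmony 0.1.0 in the design text; the matrix headers name Cell Ranger 5.0.1. The deposited counts are whole numbers and were taken as uncorrected for free RNA.

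Barcodes with at least 500 UMIs and 200 genes and at most 20% mitochondrial UMIs were kept. The automatic Scrublet threshold marked 0 cells in each library, so cells with a doublet score above 0.2 (404 Tg and 479 WT) were removed. Cells of both libraries were clustered together without integration (scanpy 1.11.5, Leiden 0.10.2, 2000 variable genes without the members, 30 components, 15 neighbours, resolution 1.0) and classes named from marker lists. UMIs were summed per class and library. With 1 library per group no test was run. Levels have exact Poisson and ratios exact conditional binomial 95% counting intervals; ratios need 50 cells in each library and 20 UMIs. Alternatives used edgeR 4.0.16 and DESeq2 1.42.0 for scaling factors only, other filters, clusterings and thinning. Genes named are the 8 members, the 3 genes most like each and genes of the listed families past 1.5-fold; a few others (Lcn2, Anxa2, Lgals1, Lgals9, Tlr4, class genes of monocyte and Kupffer cells) were named after their values were seen. The members, lists, motifs and subsets were chosen with earlier results of these data known. One gene named by the likeness rule is not reported here. The ratio script was checked on simulated counts.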

Additional observations from a re-analysis of the deposited data

Results flagged for a closer look

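For 3 genes the Tg library was higher in 1 class and lower in another by more than counting error; the difference between the classes was not tested. S100a4 had a log2 ratio of Tg over WT of 0.64 in B cell-like cells and -2.22 in erythroid cell-like cells. S100a6 had 1.43 in B cell-like cells and -2.71 in erythroid cell-like cells, here without the alarmin-rich WT barcode. Lgals3 had 0.74 in Kupffer cell-like cells and -3.11 in plasma cell-like cells. The B cell-like values of S100a4 and S100a6 rest on few cells and fell to -0.22 for S100a4 and 0.36 for S100a6 with a minimum of 1000 UMIs a cell. The erythroid cell-like value of S100a4 turned to 1.57 without cells holding a T or NK marker UMI, and most genes were lower in Tg erythroid cell-like and plasma cell-like cells.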

How the results depend on the processing

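Of 86 ratios, 50 were 1.5-fold or more in the main setting, and 24 of these kept direction and fold under every alternative that gave a value for them, which were 10 to 14 of 14. Each of the others fell short of 1.5-fold or turned under at least 1. Some of the 24 still rested on very few cells or UMIs. Among them were S100a8 and S100a9 in hepatocyte-like cells, where 1 WT cell held 86.7% of the WT S100a8 UMIs and 1 held 79.3% of the WT S100a9 UMIs. S100a4 in neutrophil-like cells, also among the 24, had 1 Tg UMI. No paired analysis was possible because each group has 1 library, and none could be left out. S100a8 in neutrophil-like cells stood at 0.086 with TMM factors, 0.094 with DESeq2 size factors, 0.14 with a hepatocyte profile subtracted, -0.13 with a minimum of 1000 UMIs, -0.078 with doublet-scored cells kept, -0.14 as a mean over cells and -0.22 without cells holding a T or NK marker UMI. S100a9, in the same order, stood at 0.33, 0.33, 0.38, 0.10, 0.16, 0.094 and 0.028, and at 0.087 thinned. S100a4 in monocyte-like cells stood at -0.49 (TMM), -0.49 (DESeq2), -0.50 (subtracted), -0.21 (minimum 1000), -0.49 (mean over cells), -1.16 (without cells holding a neutrophil marker UMI) and 0.014 at a resolution of 2.0, where only the F13a1 part kept the name. In lymphocyte-like cells it stood at -0.56 (TMM), -0.55 (DESeq2) and -0.51 (subtracted). S100a6 in LSEC-like cells stood at -2.10 (minimum 1000), -2.14 (at most 10% mitochondrial UMIs), -1.47 (doublets kept), -2.07 (resolution 2.0), -0.39 (mean over cells), -0.74 (thinned) and -0.71 (without T or NK marker cells).

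The share of pair UMIs held by neutrophil-like cells was 91.2% in Tg and 93.8% in WT at 10% mitochondrial UMIs, 91.1% in Tg and 93.3% in WT with doublets kept, 98.4% in Tg and 98.1% in WT without the 8 barcodes, and in WT 93.4% with a minimum of 1000 UMIs and 93.9% with the members used in clustering.

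Directions turned in 17 cases. Without T or NK marker cells they were 1.25 for Crip1 and 1.57 for S100a4 in erythroid cell-like, 0.97 for S100a6 and 0.70 for S100a10 in Kupffer cell-like and 0.72 for S100a10 in neutrophil-like cells. As a mean over cells they were 0.26 for Lgals3 in hepatocyte-like, and 0.32 in Kupffer cell-like and 0.100 in neutrophil-like cells for S100a10. Thinned, Lgals3 in pDC-like cells was 0.16 and S100a11 in plasma cell-like cells 0.018. S100a4 in B cell-like cells was -0.22 with a minimum of 1000 UMIs, -0.23 at 10% mitochondrial UMIs and -0.61 with the members used in clustering. In monocyte-like cells S100a8 was -2.24 and S100a9 -4.17 at a resolution of 2.0, and -3.10 and -3.74 without the 8 barcodes. The alarmin-rich Tg barcode of the class is among those 8. At a resolution of 2.0 the class II part had also lost the name. The causes of these turns were not tested.

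Genes past 1.5-fold numbered 343 to 999 higher and 295 to 4111 lower per class, 880 to 2769 and 1603 to 4983 with no filter on UMIs, and 220 to 769 and 72 to 2001 past 2-fold.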

Other observations

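Lcn2, which encodes the siderophore-binding protein lipocalin-2 of neutrophil granules and of hepatocytes, had another pattern than S100a8 and S100a9. In hepatocyte-like cells it was at 564 CPM in Tg and 347 CPM in WT, a log2 ratio of 0.70. It was also higher in Tg in B cell-like cells, at 68.3 CPM in Tg and 6.59 CPM in WT, in lymphocyte-like cells, at 47.9 CPM in Tg and 4.38 CPM in WT, and in LSEC-like cells, at 68.8 CPM in Tg and 14.7 CPM in WT, classes in which S100a8 and S100a9 were lower in Tg. Hepatocyte marker UMIs were 1.55% of the class sum in Tg and 0.321% in WT B cell-like cells, and their part in the Lcn2 values was not tested. In cholangiocyte-like cells Lcn2 was at 153 CPM in Tg and 131 CPM in WT.

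Anxa2 was 1.5-fold or more higher in Tg in pDC-like cells, at 244 CPM in Tg and 126 CPM in WT, a log2 ratio of 0.96. Its partner S100a10 was at 209.7 CPM in Tg and 313 CPM in WT in the same cells, a log2 ratio of -0.58. In other classes Anxa2 went the other way. It was 1.5-fold or more lower in Tg in erythroid cell-like (-3.22), plasma cell-like (-1.94) and hepatocyte-like cells (-1.43).

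Limits: genotype, animal, preparation and sequencing cannot be told apart with 1 library per group. Cell names were rebuilt from marker genes, and B cell-like, lymphocyte-like and LSEC-like cells of each library mostly lay in separate clusters. Median depth was 2785 UMIs in Tg and 4807 in WT cells, so unthinned shares of cells cannot be compared closely between the libraries. The shares of cells with C1qa, Clec4f, Flt3, Cd209a and F13a1 UMIs were not thinned. The same holds for the B cell-like shares marked as unthinned. Levels under about 20 CPM rest on few UMIs or few cells in most classes. Intervals cover counting error only.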
